A study of Saccharomyces cerevisiae with 4 samples.

Results

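The 10 box C/D snoRNAs that guide 2′-O-methylation between nucleotides 640 and 1140 of 25S rRNA, within domain II of the molecule, were followed in a cross-linking dataset of the yeast RNA helicase Dbp7. They are SNR18, SNR58, SNR39, SNR39B, SNR59, SNR50, SNR72, SNR40, SNR60 and SNR61. They were chosen by their known targets, not by their values, though earlier results of these data were already known. They make up 10 of the 77 snoRNAs listed. The 4 libraries of Saccharomyces cerevisiae BY4741 cells, 2 per strain, were made by PAR-CRAC, in which RNA cross-linked to a purified protein by way of a photoreactive uridine is sequenced as cDNA. Dbp7-HTP cells carry a His-TEV-Protein A tag on the genomic copy of DBP7, and the wild-type (WT) cells carry no tag, so that their reads are the background of the purification. Cells of both strains grew in 4-thiouracil and were irradiated at 365 nm, and nothing else was said to differ between them.

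Box C/D snoRNAs are small nucleolar RNAs that assemble with the methyltransferase Nop1 and the proteins Nop56, Nop58 and Snu13. Each pairs with pre-rRNA through a guide element next to its box D or D′, and the methyl group is placed on the ribose of the nucleotide at a fixed distance from that box. Guides act while the 35S pre-rRNA is being made and folded, and must leave before the rRNA structure can close. Dbp7 is a nucleolar DEAD-box protein of the large subunit pathway, a family known for separating short RNA duplexes.

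The 10 guides direct methylation of 11 nucleotides of 25S rRNA, of which 5 are adenosines, 3 guanosines, 2 cytidines and 1 a uridine. All 11 named bases were found at their positions in the deposited 25S sequence (RDN25-2, chromosome XII). The stretches around them are shown because they are the sites where the guides pair and where coverage was read. They are written as DNA with T for U, each from 10 nucleotides before to 10 after its targets, and the capitals mark the methylated nucleotides.
A649 and C650, guided by SNR18: gtcttgaaacACggaccaagga
C663, guided by SNR58: accaaggagtCtaacgtctat
G805 (SNR39B), A807 (SNR39 and SNR59) and A817 (SNR60): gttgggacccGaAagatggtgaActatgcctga
G867 (SNR50) and A876 (SNR72): gaggctcgtaGcggttctgAcgtgcaaatc
U898 (SNR40) and G908 (SNR60): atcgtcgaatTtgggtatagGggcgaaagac
A1133, guided by SNR61: tttggtaagcAgaactggcga
The targets fall in 3 clusters, in which the sites of different guides lie close together, and 1 lone site at A1133. Since 4-thiouracil is taken up in place of uridine, only uridines can be cross-linked and read as a substitution. The 11 windows of 21 nucleotides centred on the targets held 3 to 7 uridines, with a mean of 4.45, against a mean of 5.35 over all 25S windows of that length.

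The snoRNA values exist for 1 library of each strain, Dbp7-HTP replicate 2 with 730583 mapped reads and WT replicate 2 with 467529. They are reads scaled to 1000000 mapped reads (RPM), in which 1 read is worth 1.37 RPM in Dbp7-HTP and 2.14 RPM in WT. No replicate check of a ratio is therefore possible, and no test was made. The 95% intervals below are exact (Clopper-Pearson) and cover counting error only. All ratios are of RPM, and on reads outside rRNA each of them is 2.25 times as high, which puts 6 of the 10 above 1 (SNR18, SNR39, SNR39B, SNR59, SNR72 and SNR60). On that scale 24 of the 75 listed snoRNAs with at least 10 reads in both libraries together were under 1. The abundance of the snoRNAs in the cells was not analysed here, so a ratio compares recovered reads and not cross-linking per molecule.

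SNR40 was by far the best recovered of the 10 guides in both strains. It places the methyl group on U898 and also on G1271 of 18S rRNA. It had 451 RPM in Dbp7-HTP (330 reads) and 1148 RPM in WT (537 reads), a ratio of 0.393 with an interval of 0.342 to 0.452. SNR40 alone held 50.5% of the guides' reads in Dbp7-HTP and 54.8% in WT, so it weighs most in any sum over the group.

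SNR61, the guide of A1133, came next. It had 136 RPM in Dbp7-HTP (100 reads) and 453 RPM in WT (212 reads), a ratio of 0.302 (0.236 to 0.385). SNR40 and SNR61 were the 2 guides whose whole interval lay under 0.5. SNR61 is made as part of 1 precursor with SNR55 and SNR57, which guide other rRNA sites. SNR55, with 17 reads in Dbp7-HTP against 11 in WT, had a ratio of 0.989 (0.437 to 2.34). SNR57, with 5 reads in Dbp7-HTP against 17 in WT, had a ratio of 0.188 (0.0543 to 0.531). The precursor's 3 snoRNAs thus spanned values near 1 and far under it, with counts of SNR55 and SNR57 too small to place them closely.

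SNR58 and SNR50, the guides of C663 and G867, were also under 0.5. SNR58 had 6 RPM in Dbp7-HTP (5 reads) and 36 RPM in WT (17 reads), a ratio of 0.188 (0.0543 to 0.531). SNR50 had 19 RPM in Dbp7-HTP (14 reads) and 51 RPM in WT (24 reads), a ratio of 0.373 (0.179 to 0.751). Both intervals ran past 0.5, so these 2 guides passed the fold limit on few reads.

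The 3 guides of the G805 and A807 pair lie in or beside ribosomal protein genes. SNR39 lies within RPL7A and SNR59 within RPL7B, paralogous genes of the same ribosomal protein, and both snoRNAs guide A807. SNR39 had 41 RPM in Dbp7-HTP (30 reads) and 53 RPM in WT (25 reads), a ratio of 0.768 (0.437 to 1.36). SNR59 had 26 RPM in Dbp7-HTP (19 reads) and 40 RPM in WT (19 reads), a ratio of 0.640 (0.321 to 1.28). The intervals of both guides of A807 held 1, and reads that map to both snoRNAs could be split between them in a way not given in the sources used here. SNR39B, which guides G805 and is the neighbour of RPL7A, had 76 RPM in Dbp7-HTP (56 reads) and 128 RPM in WT (60 reads). Its ratio of 0.597 (0.407 to 0.874) was under 1 beyond counting error in RPM, but was 1.34 on reads outside rRNA.

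SNR18, which lies within EFB1, the gene of a translation elongation factor, guides A649 and C650. It had 34 RPM in Dbp7-HTP (25 reads) and 53 RPM in WT (25 reads), a ratio of 0.640 (0.353 to 1.16). SNR60, the guide of A817 and G908, had 73 RPM in Dbp7-HTP (54 reads) and 109 RPM in WT (51 reads), a ratio of 0.678 (0.453 to 1.01). In RPM neither could be told apart from 1 at this depth.

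SNR72, the guide of A876, was the only one of the 10 with the higher RPM in Dbp7-HTP, though 6 were higher there on reads outside rRNA. It had 27 RPM there (20 reads) and 21 RPM in WT (10 reads), a ratio of 1.28 (0.572 to 3.06), which counting error alone does not separate from 1. SNR72 is cut from a precursor that also holds SNR73 to SNR78. Its neighbour SNR73, a guide of another 25S site, was at 195 reads in Dbp7-HTP against 29 in WT, giving a ratio of 4.30 (2.90 to 6.60). The ratios of the other 5 snoRNAs of that precursor ran between 0.278 for SNR78 and 0.640 for SNR74, with SNR76 at 0.498, SNR75 at 0.614 and SNR77 at 0.291. SNR73 was the single one of the 7 above 2-fold, and the intervals of SNR72 and SNR73 overlapped narrowly.

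**Figure D1:**
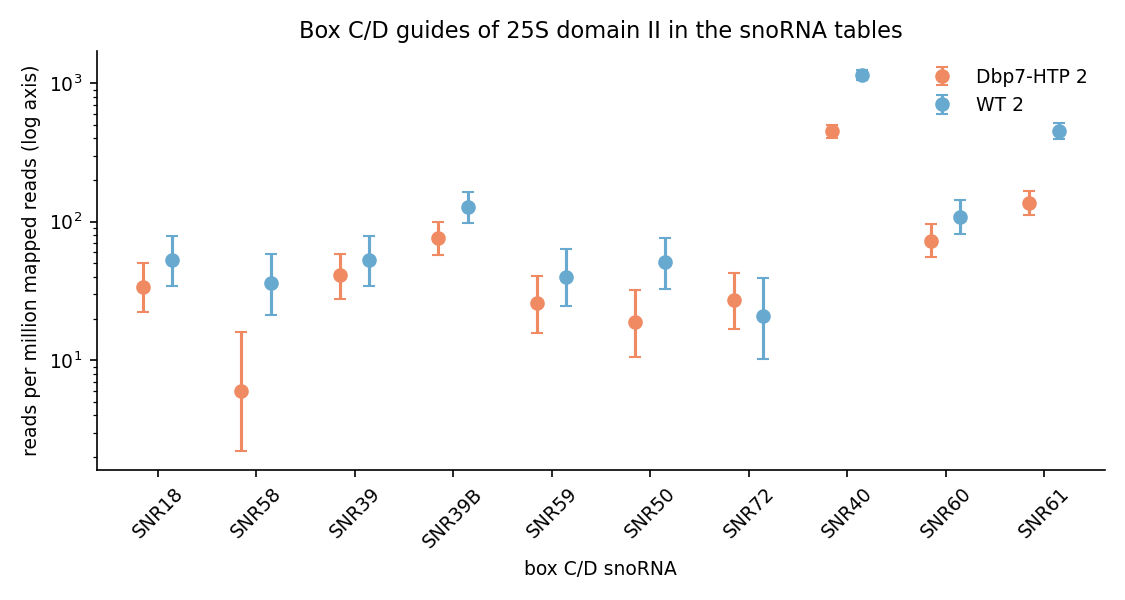
RPM of each of the 10 guides (log axis) in Dbp7-HTP replicate 2 and WT replicate 2, with 1 library per strain; bars are exact 95% Poisson intervals of the reads. SNR40 and SNR61 are the highest in both libraries, 451 and 136 RPM in Dbp7-HTP against 1148 and 453 RPM in WT, and SNR72 is the only guide whose Dbp7-HTP point lies above its WT point on this scale, against 6 on reads outside rRNA.

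Counted over the group, 0 of the 10 guides had a ratio above 2 and 4 had one under 0.5. Among the 75 listed snoRNAs with at least 10 reads in both libraries together, 12.0% were above 2 and 36.0% under 0.5, so that the share of guides under 0.5 lay near that of all snoRNAs. The median ratio of the guides was 0.619 and that of the 75 snoRNAs 0.730. In RPM the interval lay wholly under 1 for 5 of the 10 guides and wholly above 1 for 0, against 37.3% and 14.7% of the 75 snoRNAs. On reads outside rRNA it lay wholly under 1 for 1 guide (SNR61) and wholly above 1 for 2 (SNR60 and SNR72), against 6 and 36 of the 75. The guides did not stand at 1 end of the list either, since from the lowest ratio SNR58 ranked 6 of 75, SNR61 12, SNR50 16 and SNR40 19, while SNR72 ranked 55.

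Other C/D guides serve as a measure of what is particular to these sites. Of the 20 C/D guides of other 25S regions, 1 was above 2 and 9 were under 0.5, with a median ratio of 0.685. Of 11 C/D guides of 18S rRNA alone with enough reads, 0 were above 2 and 9 were under 0.5, with a median of 0.311. The median of the 10 guides thus lay close to that of the other 25S guides and above that of the 18S guides, as a description of these 2 libraries. Sums of reads gave another picture. The summed ratio was 0.426 for the 10 guides, 0.798 (0.733 to 0.869) for the other 25S guides and 0.336 (0.301 to 0.374) for all 12 guides of 18S alone. By the sum, in which SNR40 weighs most, the 10 guides lay nearer the 18S guides. They did so too without the reads of SNR40 (0.467), but not without those of SNR40 and SNR61 (0.618).

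**Figure D2:**
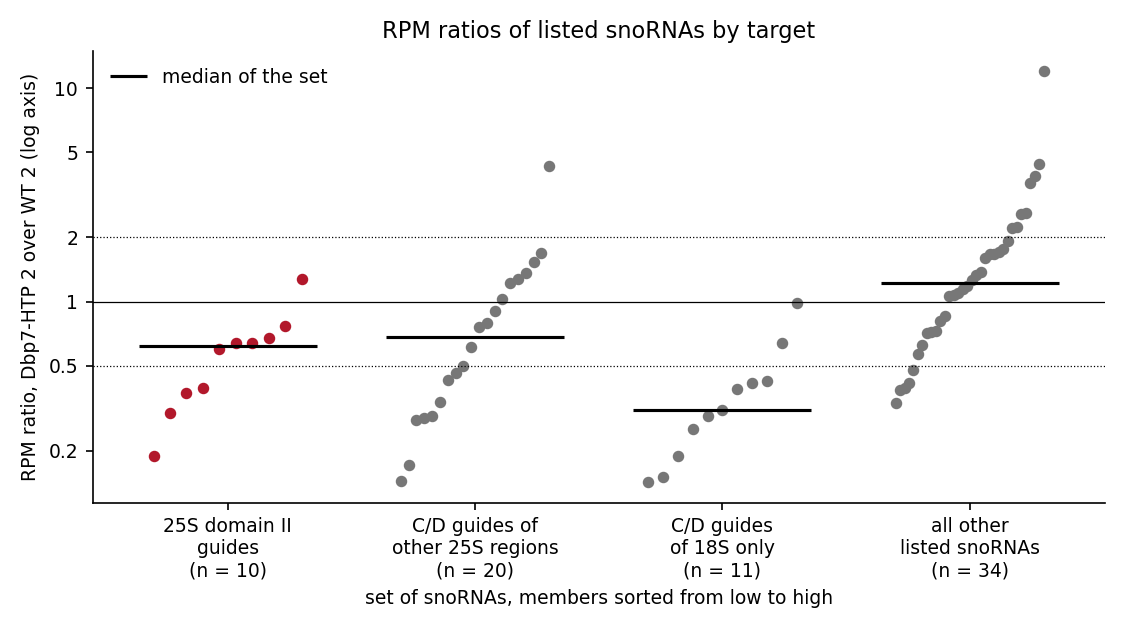
RPM ratio of Dbp7-HTP replicate 2 over WT replicate 2 (log axis) for the 75 snoRNAs with at least 10 reads, sorted within each set; each point is 1 snoRNA, thick lines are set medians and dotted lines the limits of 0.5 and 2. The 10 domain II guides run between 0.188 and 1.28 with a median of 0.619, inside the range of the 20 guides of other 25S regions.

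Summed over the 10 guides, 653 reads were found in Dbp7-HTP against 980 in WT, which gave a ratio of 0.426 (0.386 to 0.471). Without the reads of SNR40 the summed ratio was 0.467, and without those of SNR40 and SNR61 it was 0.618. The size and the direction of these ratios rest on the scale. The class of rRNA held 700544 RPM in Dbp7-HTP replicate 2 and 326221 RPM in WT replicate 2. On reads outside rRNA, the summed ratio was 0.959, 1 guide was above 2 (SNR72, 2.88), 1 was under 0.5 (SNR58, 0.423) and 4 were under 1. Of the 75 snoRNAs, 32 were above 2, 6 under 0.5 and 24 under 1 on those reads. The guides' median was 1.39 on that scale, against 1.64 for the 75 snoRNAs.

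Among listed snoRNA reads alone, the 10 guides took 7.48% in Dbp7-HTP (95% Wilson interval 6.95 to 8.06%) and 22.8% in WT (21.6 to 24.1%). A single snoRNA carried much of that difference. SNR190, a C/D snoRNA thought to act in pre-rRNA folding, had 4425 reads in Dbp7-HTP and 236 in WT. Leaving SNR190 out of the total, the guides took 15.2% in Dbp7-HTP and 24.1% in WT. The number of guides under 0.5 on that scale was 2, beside 15 of the 75 snoRNAs. Antisense values of all 10 guides were 0 in both libraries.

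Coverage of the 11 target nucleotides was read in all 4 libraries, as the number of reads over the nucleotide scaled to 1000000 mapped reads. Replicate 1 has no stated total, and totals of 1214217 reads for Dbp7-HTP and 159127 for WT were estimated from their 35S coverage. WT replicate 1 was the shallowest library, with as few as 15 reads over a target. Differences were tested with limma over 6603 nucleotides of 35S pre-rRNA on log2(RPM + 1), with Benjamini-Hochberg adjustment. Of those nucleotides, 15.4% were called higher with Dbp7-HTP and 13.6% lower, while 1 of the 11 targets was called higher and 0 lower. With the replicate number as a block, since the study describes 2 independent experiments, 21% of the nucleotides and 4 of the targets (A649, C650, G867 and A876) were called higher.

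The target called was G867, the site of SNR50. Its coverage was 1385 and 1094 RPM in Dbp7-HTP, against 295 and 242 RPM in WT. The log2 ratio was 2.2 (SE 0.45, adjusted p = 0.0141 by limma, n = 2 libraries per strain), and both Dbp7-HTP libraries lay above both WT libraries. Within 25S itself, G867 was covered more highly than 53.5 and 55.4% of nucleotides in Dbp7-HTP and 35.8 and 32.6% in WT, so it was of middling height in every library. Scaled to the 35S coverage of each library, which needs no estimated total, its log2 ratio was 1.37 (adjusted p = 0.0421 by limma). With 1 Dbp7-HTP library left, the log2 ratio was 2.03 without replicate 1 and 2.37 without replicate 2, and the call was lost. Each of these fits gave every target the same SE of 1.07, so the lost call does not measure the spread at G867 itself.

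A876, the site of SNR72, lies 9 nucleotides downstream on the same stretch. It had 594 and 600 RPM in Dbp7-HTP, against 289 and 143 RPM in WT, a log2 ratio of 1.55 (SE 0.51) with an adjusted p of 0.0589 by limma and of 0.0346 with the replicate block. The groups did not overlap. Coverage in Dbp7-HTP dropped between these 2 targets, the SNR50 site lying on the flank of a broad maximum and the SNR72 site at its foot.

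A649 and C650, the adjacent sites of SNR18, had the lowest coverage of the 11 in every library. A649 had 290 and 177 RPM in Dbp7-HTP, against 94.3 and 66.3 RPM in WT, a log2 ratio of 1.51 (SE 0.50, adjusted p = 0.0579 by limma and 0.0397 with the replicate block). C650 had 285 and 179 RPM in Dbp7-HTP, against 94.3 and 66.3 RPM in WT, with an adjusted p of 0.0570 by limma and of 0.0398 with the replicate block. The groups did not overlap at either nucleotide, and neighbouring nucleotides are covered largely by the same reads. C663, the site of SNR58, had 740 and 621 RPM in Dbp7-HTP, against 496 and 272 RPM in WT, a log2 ratio of 0.88 (SE 0.50, adjusted p = 0.201 by limma).

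At the sites of SNR39B, SNR39 and SNR59 the groups overlapped. G805 had 941 and 513 RPM in Dbp7-HTP, against 207 and 563 RPM in WT. A807 had 954 and 527 RPM in Dbp7-HTP, against 233 and 556 RPM in WT. WT replicate 2 was the higher of the WT libraries here and stood above Dbp7-HTP replicate 2 at both sites. A817, the first site of SNR60, had 1140 and 697 RPM in Dbp7-HTP, against 258 and 607 RPM in WT. The log2 ratios of these 3 nucleotides were 1.02, 0.98 and 1.17 with adjusted p of 0.234, 0.232 and 0.155 by limma.

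At U898 and G908, the sites of SNR40 and SNR60, it was WT replicate 1 that stood high. U898 had 1833 and 1339 RPM in Dbp7-HTP, against 1370 and 483 RPM in WT. G908 had 1712 and 1295 RPM in Dbp7-HTP, against 1175 and 477 RPM in WT. Their log2 ratios were 0.94 (SE 0.61, adjusted p = 0.253) and 0.99 (SE 0.57, adjusted p = 0.207 by limma). The WT libraries differed from each other by more than 2 times at 6 of the targets, with replicate 1 the higher at 3 and replicate 2 at 3.

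A1133, the site of SNR61, had the highest coverage of the 11 in Dbp7-HTP replicate 1. It had 1982 and 944 RPM in Dbp7-HTP, against 767 and 515 RPM in WT, a log2 ratio of 1.12 (SE 0.54, adjusted p = 0.148 by limma). The groups did not overlap.

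**Figure D3:**
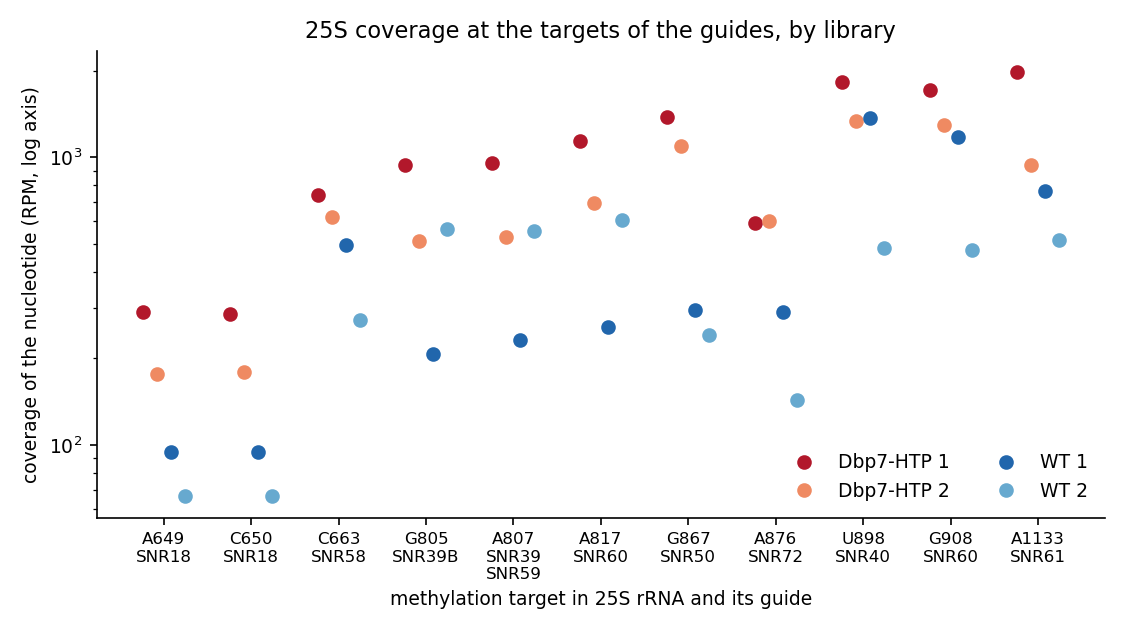
Coverage of the 11 target nucleotides in RPM (log axis), 1 point per library and no averaging, with the guides of each target named under it. G867 is the only target called, at 1385 and 1094 RPM in Dbp7-HTP against 295 and 242 RPM in WT, and the strains overlap at G805, A807 and U898.

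All 11 log2 ratios were positive, as were 3485 of the 6603 nucleotides tested. The median was 1.12 at the targets, against 0.16 over the nucleotides tested. Those nucleotides span the whole 35S, while 25S itself was higher with Dbp7-HTP. The median coverage of 25S was 1217 and 894 RPM in Dbp7-HTP, against 471 and 394 RPM in WT. The target median is therefore not read as particular to these sites. When coverage was scaled to 35S coverage instead, all 11 remained above 0 with a median of 0.29. On that scale 2267 of 6609 nucleotides were above 0, and the median of all nucleotides was -0.66. At 8 of the 11 targets both Dbp7-HTP libraries lay above both WT libraries, as did 68.5% of all 25S nucleotides. The count at the targets was thus near that of 25S as a whole. Without WT replicate 1, 7 targets were called higher beside 32.5% of the nucleotides tested, and without WT replicate 2 the values were 2 targets and 19.1%. Without Dbp7-HTP replicate 1 there were 0 targets and 4.52%, and without Dbp7-HTP replicate 2 there were 0 targets and 3.84%, so the calls over all nucleotides moved with those at the targets.

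Guides and targets are set side by side as values only. SNR50 had a ratio of 0.373 while its target G867 had the largest log2 ratio of the 11, and SNR61 had 0.302 while A1133 had a log2 ratio of 1.12. SNR72 and its target A876 both had the higher values in Dbp7-HTP. On reads outside rRNA the ratios of SNR18, SNR39, SNR39B, SNR59, SNR60 and SNR72 were above 1. The log2 ratios at all 11 targets were positive in RPM, and target coverage was not scaled to reads outside rRNA. The comparison of a guide with its target thus depends on the scale. The 18S target of SNR40, G1271, had 395 and 183 RPM in Dbp7-HTP, against 729 and 389 RPM in WT, and the groups overlapped there as they did at U898. With 1 snoRNA table per strain, no relation between the guides and their targets was tested.

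The stretch between the first and the last target, A649 to A1133, is 485 nucleotides long and makes up 14.3% of 25S. Its mean coverage was 1042 and 727 RPM in Dbp7-HTP, against 709 and 476 RPM in WT, or 885 ± 223 RPM in Dbp7-HTP and 592 ± 165 RPM in WT (SD, n = 2 each). The difference of 0.58 log2 units had p = 0.333 by an exact two-sided permutation test, the smallest that 2 libraries against 2 can give. Under scaling to 35S coverage the log2 ratio became -0.25 (p = 0.667 by the same exact test). Both Dbp7-HTP libraries lay above both WT libraries in RPM, and the order was not kept on the 35S scale.

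As a share of 25S coverage, which needs no total, the stretch was lower with Dbp7-HTP. It took 7.33 and 5.28% in Dbp7-HTP, against 11.7 and 11.6% in WT, a difference of -5.32 percentage points (exact two-sided permutation p = 0.333, n = 2 each). In neither strain did the stretch reach its 14.3% of the length. As a share of the whole 35S coverage the groups overlapped, with 6.31 and 4.54% in Dbp7-HTP and 7.0 and 5.78% in WT. The mean coverage of all 25S was 2031 and 1967 RPM in Dbp7-HTP, against 869 and 586 RPM in WT, a wider gap between the strains than in the stretch.

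The highest points of the stretch were not methylation targets of these guides. The maximum lay at C945 in Dbp7-HTP replicate 1 (2393 RPM) and at U939 in Dbp7-HTP replicate 2 (1477 RPM), against C945 in WT replicate 1 (4732 RPM) and U943 in WT replicate 2 (1750 RPM). The same place was thus the local maximum in all 4 libraries, and it was 6.68 times the stretch mean in WT replicate 1. A second rise lay between A817 and G867, where the 29 nucleotides more than 10 away from either target averaged 2044 and 1266 RPM in Dbp7-HTP, against 323 and 497 RPM in WT. The 121 nucleotides between C663 and G805 were low on average, at 440 and 346 RPM in Dbp7-HTP, against 247 and 240 RPM in WT, with a step up towards G805 that was smallest in WT replicate 1.

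**Figure D4:**
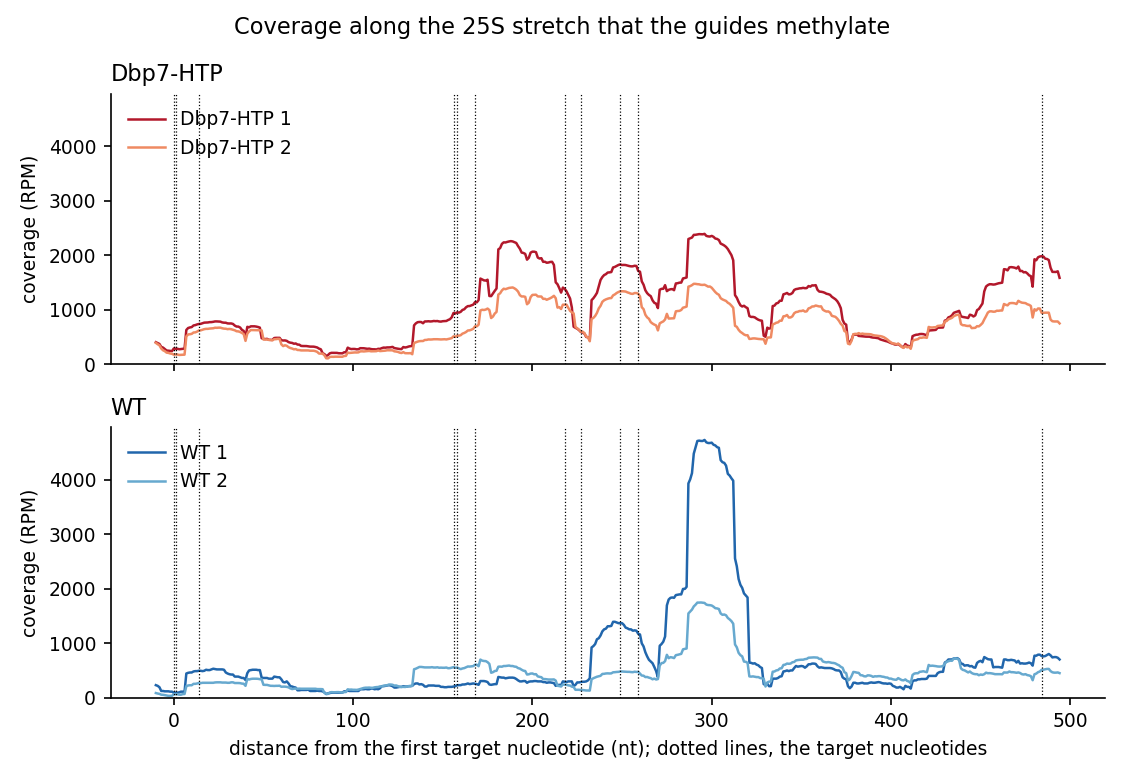
Coverage in RPM along the stretch of 485 nucleotides, as distance in nt from the first target A649, for the 2 Dbp7-HTP libraries (upper panel) and the 2 WT libraries (lower panel) on the same axis; dotted lines mark the 11 targets. The common maximum reaches 2393 and 1477 RPM in Dbp7-HTP against 4732 and 1750 RPM in WT. The rise before G867 is higher in the Dbp7-HTP libraries, and WT replicate 2 also rises there, with 702 RPM at 171 nt.

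The paper states that mapped reads were kept only if they carried a T-to-C change. Substitutions were recorded at uridines and nowhere else in 25S, and no deletions were recorded. That filter alone would not remove other changes from the reads it keeps, and why none were recorded is not known here. Because of the filter, each share below is taken among reads already selected for a change, and is not a rate of substitution at the site. Among the 11 targets, only U898, the SNR40 site, is a uridine and could carry recorded substitutions. It had 217 and 168 RPM of substitutions in Dbp7-HTP, against 50.3 and 25.7 RPM in WT. Of the reads over U898, 11.8% (95% Wilson interval 10.5 to 13.2%) and 12.6% (10.6 to 14.8%) had a substitution in Dbp7-HTP, against 3.67% (1.87 to 7.07%) and 5.31% (3.06 to 9.05%) in WT. The log2 ratio of the substitution RPM was 2.38 (exact two-sided permutation p = 0.333, n = 2 each), and the groups did not overlap. The WT values rested on 8 of 218 and 12 of 226 reads.

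Neighbours of U898 differed in which libraries were high. At U897 the share was 14.9 and 12.5% in Dbp7-HTP, against 3.67 and 7.62% in WT. At U899 it was 15.5 and 15.4% in Dbp7-HTP, against 3.67 and 14.6% in WT, so WT replicate 2 lay near Dbp7-HTP there. At U892 it was 9.47 and 10.6% in Dbp7-HTP, against 56.0 and 6.70% in WT, and the high value belonged to WT replicate 1 alone, with 117 of 209 reads.

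In both Dbp7-HTP libraries the most frequent substitution near a target was at U865, 2 nucleotides before the SNR50 site G867, whereas the highest share lay at U892 in WT replicate 1 and at U642 in WT replicate 2. It was found in 57.8% (55.4 to 60.2%) and 59.2% (55.7 to 62.7%) of reads in Dbp7-HTP, against 48.6% (33.4 to 64.1%) and 30.9% (22.6 to 40.7%) in WT. In RPM of substitutions, U865 had 760 and 601 in Dbp7-HTP, against 113 and 64.2 in WT. Substitution at this uridine was common among the kept reads of both strains, and its Wilson intervals overlapped between the Dbp7-HTP libraries and WT replicate 1. The opposite order was seen at U642, before the SNR18 sites, with 5.68 and 5.66% in Dbp7-HTP, against 35 and 44.4% in WT, the WT values resting on 20 and 27 reads.

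Across the 34 uridines within 10 nucleotides of a target, both Dbp7-HTP libraries had the higher share at 8 and the lower share at 8. Their median share was 8.27 and 9.08% in Dbp7-HTP, against 9.44 and 8.24% in WT, and the medians of all 869 covered 25S uridines were 7.72 and 8.09% in Dbp7-HTP, against 8.16 and 7.75% in WT. The same count was not made over all 25S uridines, so the 8 and 8 are not read as a result about these sites. Every kept read carries a T-to-C change, so shares at neighbouring uridines also depend on each other.

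**Figure D5:**
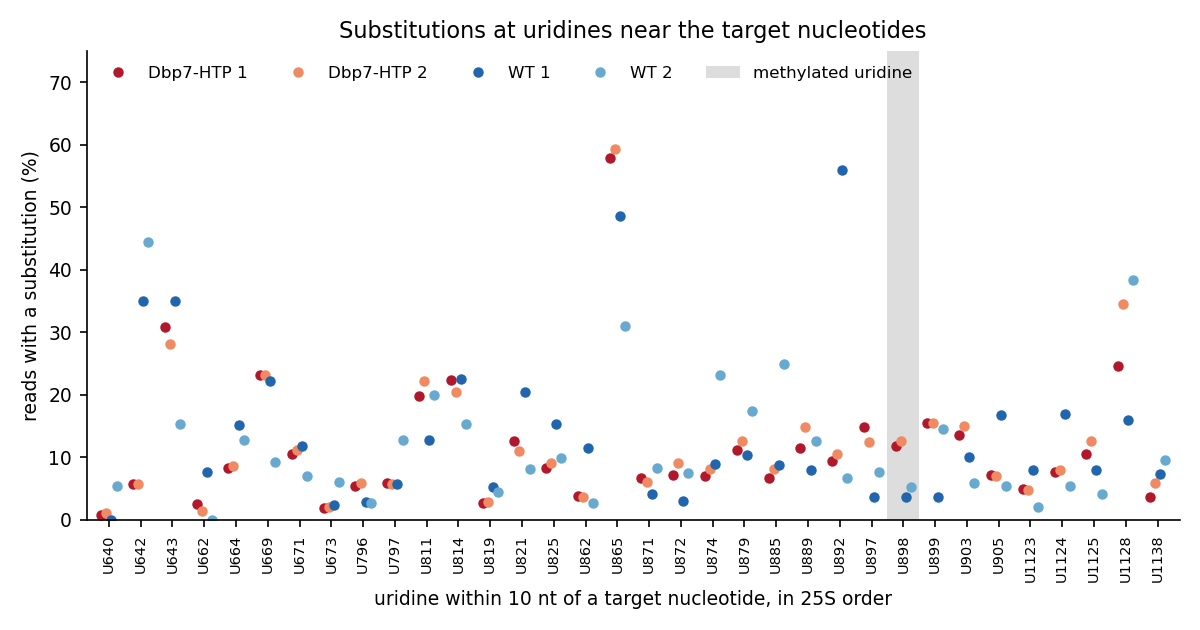
Share of reads with a substitution (%), among reads kept for a T-to-C change, at each of the 34 uridines within 10 nt of a target. Each point is 1 library, and the grey band marks U898, the methylated uridine. U865 reaches 57.8 and 59.2% in Dbp7-HTP against 48.6 and 30.9% in WT, and U892 is high in WT replicate 1 alone, at 56.0%.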

How the data were processed

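PAR-CRAC libraries of 2 Dbp7-HTP and 2 WT samples were analysed. The authors mapped reads with Bowtie 2 (version 2.2.4) and counted them with pyCRAC. The deposited coverage signal and substitution counts of each 35S nucleotide are not normalized, and the deposited snoRNA and RNA class scores are RPM cut to whole numbers. All 153 snoRNA values gave whole reads once the cut was undone. The first replicates' totals were estimated from summed 35S coverage, rRNA RPM and the second replicate's coverage per rRNA read (11.1 in Dbp7-HTP, 12.2 in WT). Coverage with a mean of at least 10 RPM was tested with limma (version 3.58.1, R 4.3.3) on log2(RPM + 1), with Benjamini-Hochberg adjustment at 0.05. Neighbouring nucleotides share reads, and p-values measure the spread between these libraries. On simulated data of 6613 nucleotides, 99 of 100 changes of 3 log2 units were recovered, and 5 of 100 of 1 unit. The simulation gave each nucleotide independent noise with 1 common SD of 0.516 log2 units. Real neighbours share reads, so these rates do not carry over to the reported fit. Members and lists were chosen with earlier results of these data known. All members and their targets are named, with snoRNAs of shared precursors and SNR190. Names and neighbours come from RefSeq (R64). Python 3.11.15 with numpy 2.4.6, scipy 1.17.1 and matplotlib 3.10.9 was used for the remaining values. Alternatives covered scaling, filters, pseudocount, window, model, replicate block and each library left out.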

Additional observations from a re-analysis of the deposited data

How the results depend on the processing

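The summed ratio of the 10 guides, 0.426, became 0.959 on reads outside rRNA, 0.328 on listed snoRNA reads and 0.629 on those without SNR190. Other settings were chosen after seeing the data. The sum was 0.589 with an unlabelled last column of the snoRNA tables, 0.467 without the reads of SNR40 and 0.618 without those of SNR40 and SNR61. Guides above 2 numbered 1 on reads outside rRNA, beside 32 of the 75 snoRNAs. Guides under 0.5 numbered 1 there (beside 8% of the 75), 7 on listed snoRNA reads (45.3%) and 2 without SNR190 (20%), so the whole list moved with the scale. They numbered 2 with the last column and 2 with at least 50 reads, for which no share over all snoRNAs is given. The targets called higher, 1 in the values given, were 2 with a pseudocount of 10 RPM, beside 17.6% of all nucleotides. They were 2 with an intensity trend (beside 17.9%) and 4 with a replicate block (beside 21% of all nucleotides). In 50-nt windows they were 7, in 3 separate windows, beside 22.4% of all windows. The replicate block gave every target the same SE of 0.62, and whether equal numbers mark the same experiment is not stated outright (correlation 0.123 of the deviations between strains). Leaving out a library gave 0 to 7 targets, beside 3.84 to 32.5% of all nucleotides. The stretch's log2 ratio of 0.58 reversed to -0.25 on 35S coverage and ran between 0.30 and 0.87 with a library left out. WT replicate 1, with an estimated 159127 reads, and guides with as few as 22 reads limit precision, and the cause of each change was not tested.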
